A study of Rattus norvegicus with 2 samples.

Results

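The 31 genes described here are targets of the hypoxia-inducible factors (HIF) that are widely used as readouts of low oxygen, and they were chosen by name. All 48 probe sets that the array annotation assigns to 1 of these genes alone were kept, out of 20826 probe sets and 14217 genes with such an assignment, and no probe set that names several genes named a member. A probe set is the group of short probes on the array that reports 1 transcript. Of the 31 genes, 15 had 1 probe set, 15 had 2 and 1, Pfkfb3, had 3.

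The RNA came from cultured microglial cells of Sprague Dawley rats, the macrophages that live in the brain. The cells had been kept in DMEM with 10% FCS. One array carried RNA of cells after oxygen-glucose deprivation (OGD) for 3 h, a culture model of ischaemia, and 1 array carried RNA of resting cells with no exposure. The labels give no age of the animals, oxygen level or glucose level, and no pooling or number of cultures. Neither group had a replicate, so the differences carry no test and no error between cultures, and every comparison describes these arrays only.

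HIF is a transcription factor made of an oxygen-regulated alpha subunit and a constant beta subunit. When oxygen is present, prolyl hydroxylases mark the alpha subunit for destruction, and when oxygen is short the subunit builds up and binds hypoxia response elements in its target genes. The targets adjust blood supply, glycolysis, mitochondria, acid export and the extracellular matrix, and in macrophages and microglia HIF also shapes the inflammatory state.

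The core of a hypoxia response element is ACGTG or GCGTG, and these 5 letters were searched for on both strands from 250 bases before to 50 bases after the start of each gene in RefSeq, build GRCr8. A promoter was listed for 26 of the 31 genes, all but Bnip3l, Ndrg1, Ero1a, Lox and Ets1, and 21 of them, or 80.8%, held at least 1 match. The share was 62.7% of 8014 genes with a measured probe set, one above a floor of intensity on an array, and 44.6% of all 27457 genes with a promoter, while the median GC content was 66.7% in the targets, 61% in the measured genes and 52.3% in all. The motif contains a CpG, and the part of GC content in the higher share was not tested. A match is a string of letters and does not show that HIF binds there. A CACGTG holds 1 match on each strand. The promoters of 3 genes are printed, chosen after their values were seen because on the arrays Tfrc was higher after OGD, Bnip3 had equal values and Ankrd37 was lower. Capitals mark every match and each sequence runs in the direction of its gene.
Tfrc, chr11:81690269-81690568, minus strand, 2 matches: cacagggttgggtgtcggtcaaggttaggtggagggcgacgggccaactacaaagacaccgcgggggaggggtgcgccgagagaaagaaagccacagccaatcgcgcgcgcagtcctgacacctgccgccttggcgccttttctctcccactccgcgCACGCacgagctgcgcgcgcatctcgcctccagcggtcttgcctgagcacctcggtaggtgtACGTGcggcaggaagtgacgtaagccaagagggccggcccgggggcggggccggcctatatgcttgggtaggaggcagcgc
Bnip3, chr1:203154913-203155212, minus strand, 4 matches: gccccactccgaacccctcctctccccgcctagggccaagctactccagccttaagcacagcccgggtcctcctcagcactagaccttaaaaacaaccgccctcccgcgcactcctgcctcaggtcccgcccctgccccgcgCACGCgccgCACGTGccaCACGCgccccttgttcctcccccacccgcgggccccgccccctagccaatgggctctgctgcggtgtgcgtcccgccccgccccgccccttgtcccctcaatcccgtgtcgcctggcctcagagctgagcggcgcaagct
Ankrd37, chr16:53001257-53001556, plus strand, 5 matches: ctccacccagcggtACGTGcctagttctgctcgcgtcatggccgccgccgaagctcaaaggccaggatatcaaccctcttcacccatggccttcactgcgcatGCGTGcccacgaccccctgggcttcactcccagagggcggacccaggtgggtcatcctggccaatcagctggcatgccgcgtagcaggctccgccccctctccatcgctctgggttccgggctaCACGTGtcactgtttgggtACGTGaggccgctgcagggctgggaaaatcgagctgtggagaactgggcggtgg
Because these 3 genes were picked by their direction, they cannot show how the number of matches and the direction relate. P4ha2, not printed, has 5 matches as Ankrd37 has, and its probe sets had log2 differences (OGD minus resting) of 0.22 and 0. A promoter was listed for the genes of 28 of the 34 measured probe sets, and the 6 left out, 2 each of Bnip3l, Ndrg1 and Ero1a, were all higher. The 23 measured probe sets of genes with a match had a median log2 difference (OGD minus resting) of 0.012, with 12 higher, 9 lower and 2 equal. Of the 5 measured probe sets of genes without a match in this window 0 were higher, 3 were lower and 2 were equal. These came from only 4 genes, Vegfa, Stc2, Pfkfb4 and Rora. Over all measured probe sets 43.7% were higher, 50.3% lower and 5.97% equal. Sequence outside the window was not searched, so these genes may hold a match elsewhere. A link between matches and direction was not tested.

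**Figure D1:**
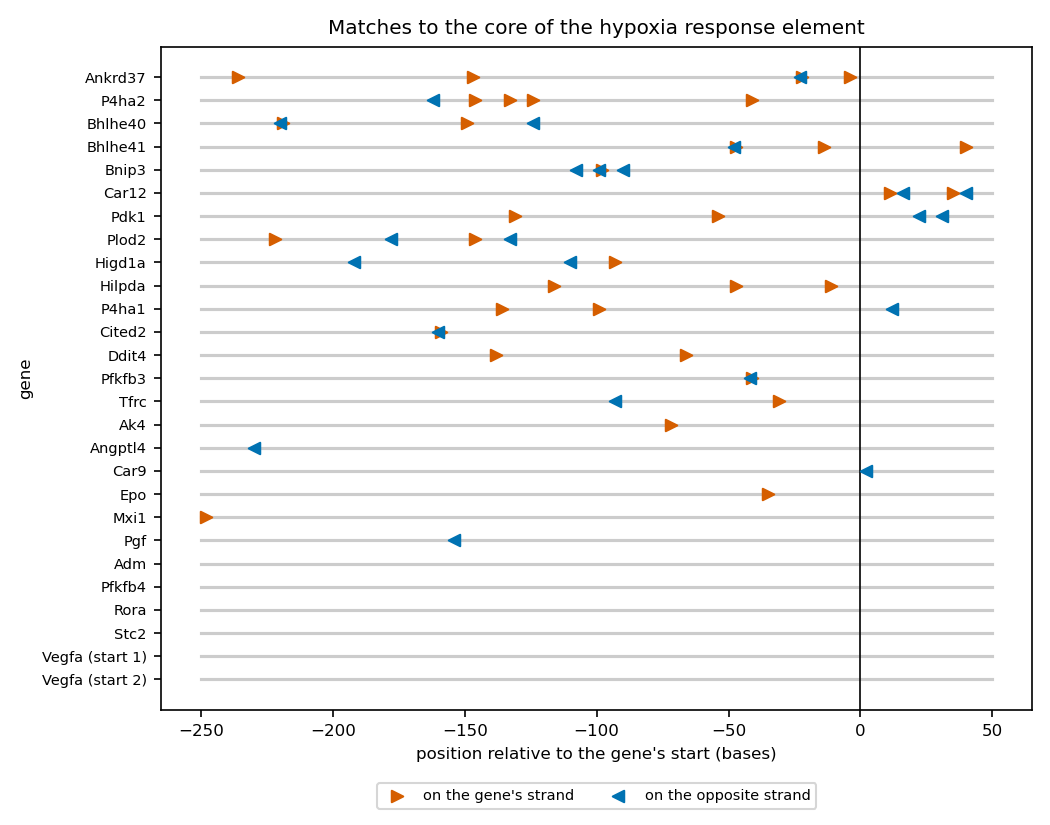
Matches to ACGTG or GCGTG in the promoters of 26 HIF target genes, by position relative to the gene's start in bases. Orange triangles pointing right lie on the gene's strand and blue triangles pointing left on the opposite strand. Ankrd37 and P4ha2 have 5 matches each, and Adm, Pfkfb4, Rora, Stc2 and both starts listed for Vegfa have 0.

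The deposited values are linear intensities, 1 per probe set and array. An intensity of 19.7, the median of the OGD array and the higher of both medians, was taken by convention as the floor of measurement. A probe set counted as measured if either array exceeded the floor, and any value under it was raised to the floor before the difference was taken. Of the 48 target probe sets 34 were measured, 32 of them on both arrays, and they belonged to 24 genes. The other 7 genes, Adm, Epo, Pdk1, Car12, Hilpda, Lox and Ets1, were under the floor on both arrays in every probe set. Because a target can pass by being bright on 1 array only, the measured probe sets do not stand for all members.

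No target probe set differed by 1.5-fold, the size named in the series' design text. The counts were 0 higher and 0 lower of 34, where 0.09% of all 12227 measured probe sets were higher and 0.0736% lower by that much. The largest differences were in Ndrg1 and Tfrc, each 1.27-fold higher on the OGD array, and in Pfkfb4, 1.28-fold lower. At 1.2-fold, 3 target probe sets were higher, against 3.89% of all measured probe sets, and 2 were lower, against 4.21%. The remaining 29 target probe sets, or 85.3%, lay within 1.2-fold, as did 91.9% of all.

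By sign alone 18 target probe sets were higher, 12 were lower and 4 were exactly equal, against 43.7% higher, 50.3% lower and 5.97% equal over all measured probe sets. Their median log2 difference was 0.0096, with quartiles of -0.051 and 0.13, and that of all measured probe sets was -0.0031, with quartiles of -0.10 and 0.084. Centred on the median of all probe sets, which moves values by 0.0031, the targets were 22 higher (64.7%) and 12 lower, the equal ones now counting as higher, beside 49.996% higher and 49.996% lower over all. By gene, 10 targets had every measured probe set higher (37.5% of all measured genes did) and 9 had every one lower (45.1%). The remaining 5 measured genes comprised 2 with equal values only and 3 with mixed probe sets.

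**Figure D2:**
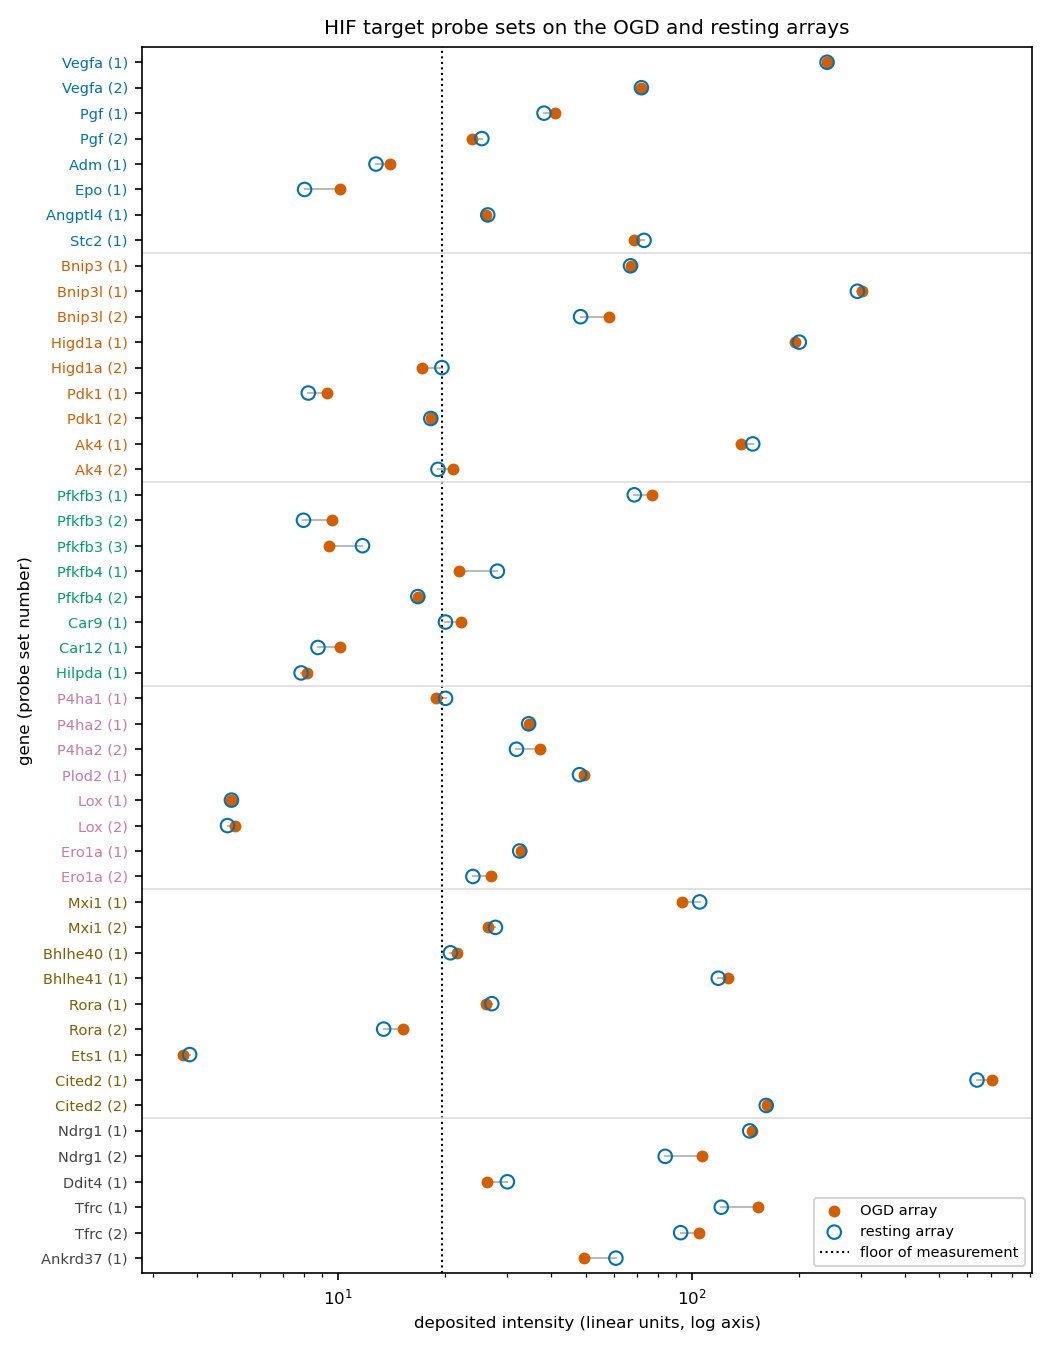
Deposited intensity (linear units, log axis) of all 48 HIF target probe sets, with the OGD array as filled orange points and the resting array as open blue circles. Colours of the gene names mark the 6 role groups, and the dotted line is the floor of 19.7. The 2 points of a probe set lie close together throughout, and levels of different probe sets cannot be compared.

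Among secreted factors, Vegfa, the main angiogenic growth factor induced by low oxygen, gave the same number on both arrays in both probe sets. Probe set 1373807_at of Vegfa read 241 on the OGD array and 241 on the resting array, and 1370081_a_at of Vegfa read 71.9 on both. Pgf, a growth factor of the same family, had 41.0 on the OGD array against 38.2 at rest in 1368918_at, and 23.8 against 25.5 in 1368919_at. Its probe sets therefore pointed in opposite directions, with log2 differences of 0.10 and -0.096. Stc2, a secreted glycoprotein of calcium and phosphate handling, had 68.7 after OGD and 73.2 at rest, a log2 difference of -0.092. Angptl4, which inhibits lipoprotein lipase, had 26.1 after OGD and 26.5 at rest. The vasodilator peptide gene Adm read 14.0 after OGD and 12.8 at rest, and the erythropoietin gene Epo 10.1 and 8.03, all under the floor, so neither is given a fold. In this group of 6 measured probe sets 1 was higher, 3 were lower and 2 were equal.

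Among mitochondrial genes, the mitophagy receptor Bnip3 read 67.0 on both arrays, exactly equal. Its relative Bnip3l, also a receptor for the removal of mitochondria, had 58.3 on the OGD array against 48.4 at rest in 1386978_at. The other probe set of Bnip3l, 1367898_at, had 302 against 293, so that the log2 differences were 0.27 and 0.045, both higher after OGD but 0.22 apart. Higd1a, a protein of the respiratory chain's supercomplexes, had 195 after OGD and 201 at rest, a log2 difference of -0.040. That sign turned with quantile scaling, to 0.0019, and the second probe set of Higd1a lay under the floor at 17.2 and 19.6.

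Ak4, a mitochondrial adenylate kinase, had 138 on the OGD array and 148 at rest in 1371824_at, a log2 difference of -0.11. The other probe set of Ak4 had 21.2 after OGD and 19.1, under the floor, at rest, which makes it at least 1.08-fold higher. Ak4 thus showed no common direction. Pdk1, a kinase that inhibits pyruvate dehydrogenase in the mitochondrion, had 18.3 on both arrays in 1 probe set. Its other probe set had 9.30 after OGD against 8.23 at rest, and all these values were under the floor.

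Among genes of metabolism, pH and lipid storage, the paralogues Pfkfb3 and Pfkfb4 differed in sign. Both encode enzymes that set the level of an activator of phosphofructokinase, and Pfkfb3 is the form tied to high glycolytic flux. Pfkfb3 had 77.2 on the OGD array and 68.7 on the resting array in 1397082_at, a log2 difference of 0.17. Its other probe sets were under the floor, with 9.62 after OGD against 7.98 at rest and 9.40 against 11.7. Pfkfb4 had 21.9 after OGD and 28.2 at rest in 1368719_at, a log2 difference of -0.36 and the lowest of all target probe sets. Of all measured probe sets 1.24% were lower than that. The Pfkfb4 value after OGD lay just above the floor, and its other probe set read 16.8 on both arrays. The difference between these paralogues was not tested, since each group has 1 array.

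The carbonic anhydrase gene Car9, which helps to control pH outside the cell, had 22.2 on the OGD array and 20.1 at rest, a log2 difference of 0.15 at a level close to the floor. Car12, another membrane carbonic anhydrase, had 10.1 and 8.77, and Hilpda, an inhibitor of lipid breakdown at lipid droplets, had 8.15 and 7.86, all under the floor. Of 8 probe sets in this role group only 3 were measured, 2 of them higher and 1 lower.

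Genes of collagen modification and protein folding were higher in 4 of 6 measured probe sets, lower in 1 and equal in 1, with a median log2 difference of 0.025. P4ha2, a catalytic subunit of collagen prolyl hydroxylase, had 37.2 on the OGD array and 31.9 at rest in 1372610_at, a log2 difference of 0.22. Its other probe set, 1375332_at of P4ha2, read 34.5 on both arrays. The related subunit gene P4ha1 had 18.9 after OGD, under the floor, and 20.1 at rest, so it was at least 1.02-fold lower. Ero1a, which reoxidises protein disulphide isomerase in the endoplasmic reticulum, had 27.0 after OGD and 24.0 at rest in 1387964_a_at and 32.7 against 32.6 in 1389297_at. The log2 differences of Ero1a were 0.17 and 0.0075, and the smaller one turned to -0.0046 with quantile scaling. Plod2, a collagen lysyl hydroxylase, had 49.5 and 48.1. Lox, which crosslinks collagen and elastin, read between 4.87 and 5.12 in both probe sets on both arrays, far under the floor.

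Transcription regulators were higher in 4 and lower in 3 of 7 measured probe sets, with a median of 0.012 and a range from -0.17 to 0.14. Cited2, a feedback inhibitor that competes with HIF for its coactivators, had 702 on the OGD array and 639 at rest in 1367602_at and 163 against 162 in 1367601_at. Both probe sets of Cited2 were thus higher after OGD, by log2 differences of 0.14 and 0.012. Mxi1, an antagonist of MYC, had 93.5 after OGD and 105 at rest in 1372093_at and 26.5 against 27.8 in 1368963_at. Both were lower, with differences of -0.17 and -0.070, which made Mxi1 the only target with 2 measured probe sets that both were lower.

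The helix-loop-helix repressor genes Bhlhe40 and Bhlhe41 had 21.7 against 20.7 and 126 against 119, higher after OGD in both. The nuclear receptor gene Rora had 26.2 after OGD and 27.2 at rest, with its other probe set under the floor at 15.3 and 13.4. Ets1, a transcription factor of immune and endothelial cells, had 3.64 and 3.80, far under the floor.

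The group of growth, stress and iron genes had 6 measured probe sets and held 3 of the 5 past 1.2-fold, 2 higher and 1 lower. Over all measured probe sets 3.89% were higher and 4.21% lower by that much. Tfrc, the transferrin receptor that brings iron into the cell, had 154 on the OGD array and 121 at rest in 1371113_a_at, and 104 against 92.8 in 1388750_at. Both were higher, with log2 differences of 0.35 and 0.17, and the mean of 0.26 was the highest of any target gene. Ndrg1, a stress-responsive gene that restrains growth, had 107 after OGD and 84.0 at rest in 1391458_at, a log2 difference of 0.35. Of all measured probe sets 1.56% were higher than that. The other probe set of Ndrg1 had 147 against 145, a difference of 0.018, so its probe sets lay 0.33 apart.

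Ankrd37, an ankyrin repeat gene known as a HIF target in human cells, had 49.5 on the OGD array and 60.9 at rest, a log2 difference of -0.30. Of all measured probe sets 2.90% were lower. Ddit4, a stress-induced inhibitor of the growth kinase mTOR, had 26.3 after OGD and 30.1 at rest, with -0.20. Each of these genes had 1 probe set, so there is no second reading to set beside it.

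**Figure D3:**
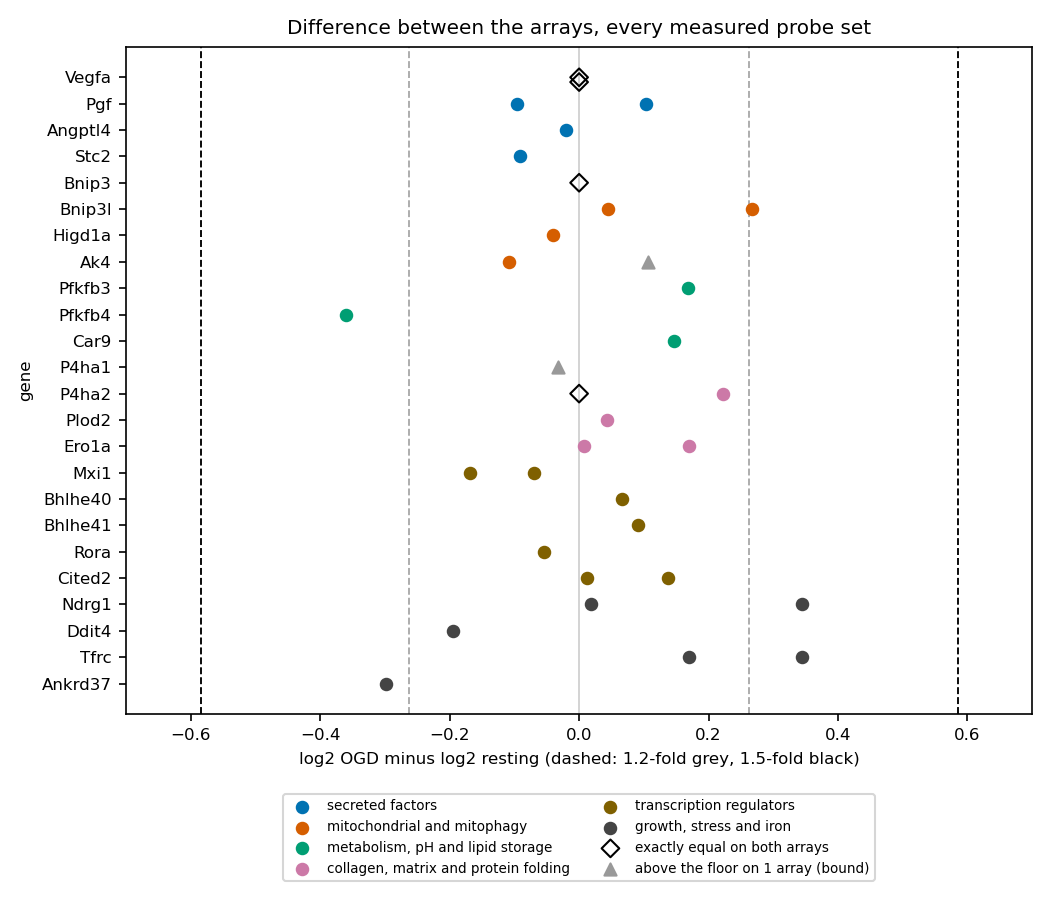
Log2 OGD minus log2 resting for the 34 measured HIF target probe sets, 1 row per gene and coloured by role, with open diamonds for exactly equal values and grey triangles for bounds. Grey dashed lines mark 1.2-fold and black ones 1.5-fold. No point reaches the black lines, and Ndrg1 and Tfrc lie farthest to the right and Pfkfb4 farthest to the left.

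The spread between probe sets of 1 gene was the one error these data allow. Noise common to the probe sets of a gene, and any variation from culture to culture, is not part of it. Over 10 target genes with 2 measured probe sets each it was an SD of 0.14 on the log2 scale, and over 2073 genes 0.15. The SD over all 34 target probe sets was 0.16 and over all measured probe sets 0.15, so the targets scattered about as much as probe sets of a single gene did. Of the 5 probe sets past 1.2-fold, 3 came from genes with a second measured probe set. In each of these the second one was higher too, by 0.17 in Tfrc, 0.045 in Bnip3l and 0.018 in Ndrg1. The Bnip3l and Ndrg1 values are smaller than the SD of 0.15, and 43.7% of all measured probe sets were higher. How often second probe sets share the sign over all genes is not given here. Pfkfb4, also past 1.2-fold, had a second probe set under the floor that read 16.8 on both arrays.

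**Figure D4:**
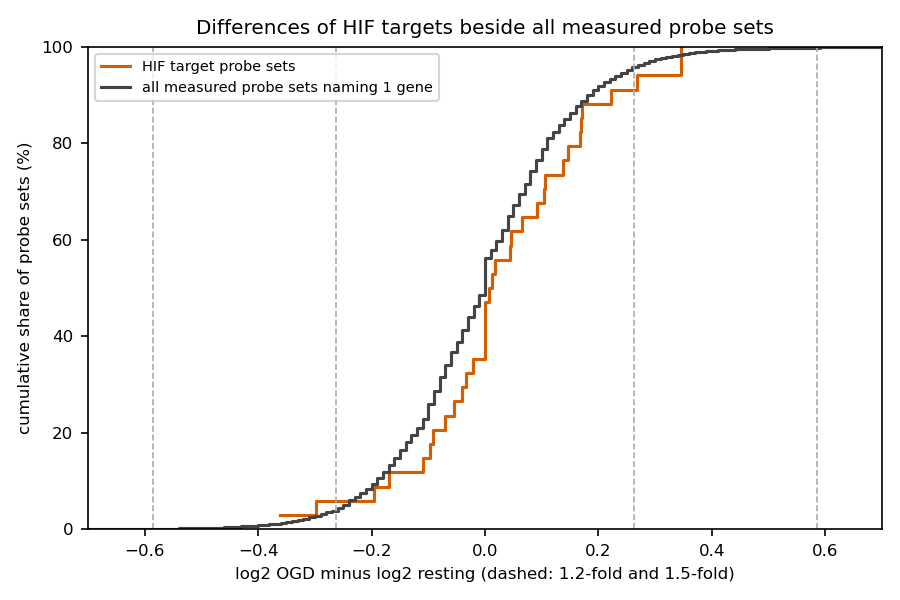
Cumulative share of probe sets (%) by log2 OGD minus log2 resting, for the 34 measured HIF target probe sets (orange) and all 12227 measured probe sets that name 1 gene (grey). Dashed lines mark 1.2-fold and 1.5-fold. The median of the targets is 0.0096 and that of all probe sets -0.0031.

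Exactly equal deposited values on both arrays were found in 7 of the 48 target probe sets, in both of Vegfa and in 1 each of Bnip3, P4ha2, Pdk1, Pfkfb4 and Lox. Over all probe sets that name 1 gene 8.19% were equal. Of the 7 target probe sets 4 were above the floor. The share of equal values fell with brightness over all 31042 probe sets, from 12.3% at intensities up to 10 to 4.37% between 100 and 200, 3.23% between 200 and 500 and 0.659% above 1000. Equal values were thus not limited to dim probe sets, and the Vegfa reading near 241 was 1 of 36 equal ones among 1115 in its class. Of 4525 genes with 2 or more probe sets 18, or 0.398%, were equal in every one, and Vegfa was 1 of only 5 of these with every probe set above the floor. How the authors' processing gives equal numbers is not given in the sources used here, so an equal value need not be a level that stayed the same.

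**Figure D5:**
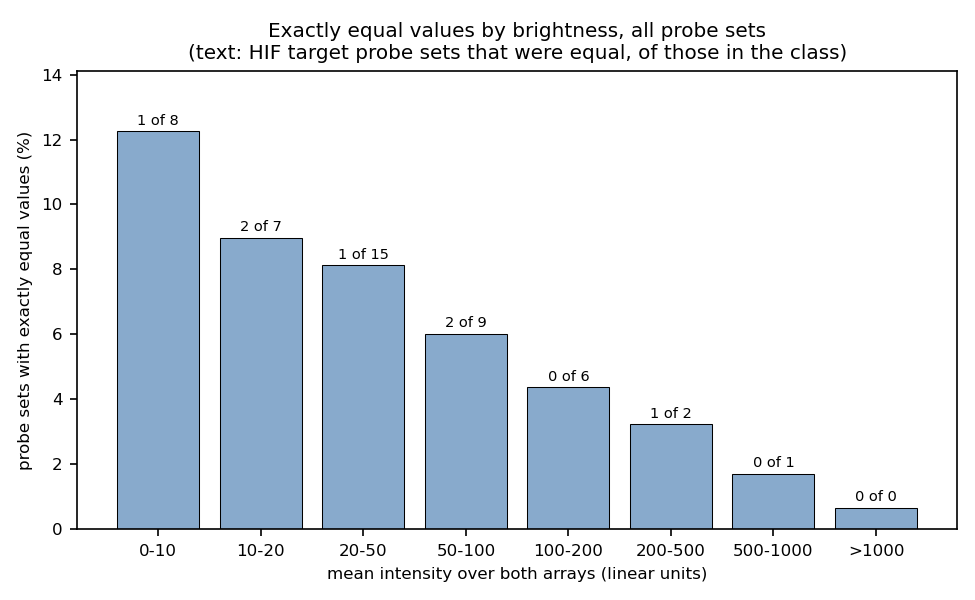
Share of all 31042 probe sets (%) with exactly equal values on both arrays, by mean intensity in linear units. The text above each bar gives how many HIF target probe sets in that class were equal. The share falls from 12.3% in the dimmest class to 0.659% in the brightest, and 3 equal target probe sets lie above 50.

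Other hypoxia-responsive genes formed a separate list of 40 that includes glycolytic enzymes and glucose transporters. Of these 30 were measured in 37 probe sets, with 21 higher, 14 lower and 2 equal, a median of 0.019 and 0 past 1.5-fold. Over all measured probe sets 43.7% were higher, 50.3% lower and 5.97% equal. By 1.5-fold 0.09% of all were higher and 0.0736% lower. At 1.2-fold 3 of the 37 were higher, against 3.89% of all measured probe sets, and 0 were lower, against 4.21%. These 3 came from the genes Rab20 (0.46 and 0.28) and Gys1 (0.33) alone. The highest means were those of the glycogen synthase gene Gys1 (0.33), the small GTPase gene Rab20 (0.30, with 3 probe sets from 0.16 to 0.46) and the haem oxygenase gene Hmox1 (0.22). Gys1, with 41.7 on the OGD array against 33.2 at rest, and Hmox1 each had 1 measured probe set. Lowest were the glycolytic genes Tpi1 (-0.22) and Pfkl (-0.20) and the ubiquitin ligase component Wsb1 (-0.16), each from 1 measured probe set. Tpi1 was close to the floor, with 24.2 on the OGD array against 28.2 at rest. The other measured glycolytic genes of this list went both ways. Lower by mean were Pfkp (-0.044), Hk1 (-0.037) and Aldoc (-0.028), and Gpi was equal. Higher were Aldoa (0.12), Pgk1 (0.11), Eno1 (0.077), Ldha (0.074) and Pgam1 (0.014). The glucose transporter gene Slc2a1 was higher by 0.22, with 571 on the OGD array against 491 at rest. Rab20 was the one gene named here with 3 measured probe sets that all were higher. A further list held 12 genes of HIF itself, its hydroxylases, its degradation factor Vhl and its coactivators. Egln1 and Egln3 are in this list and in the one above. Of these 12 genes 11 had a probe set naming them alone. Measured were 8 genes in 13 probe sets, 6 higher and 7 lower with a median of -0.016. Hif1a, the gene of an oxygen-regulated alpha subunit, had an RNA reading of 404 on the OGD array and 332 at rest. It was the only one of these genes past 1.2-fold. Epas1, the gene of another alpha subunit, had 55.4 on the OGD array against 46.7 at rest in 1 probe set. Its other probe set had 23.0 against 24.3.

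Nearly all microglial markers read lower on the OGD array, most of them by less than 1.2-fold. Of 15 markers 14 had a probe set and all 14 were measured, in 16 probe sets. Of these 15 were lower on the OGD array, against 50.3% of all measured probe sets, and 14 lay within 1.2-fold. Their median log2 difference was -0.095, beside an SD of 0.15 between probe sets of 1 gene. The list's 18 probe sets, measured or not, had a summed intensity of 1831 after OGD against 1927 at rest. The probe set that read higher was that of C1qc, a complement gene, with 32.3 against 26.3. Trem2 (367 against 391 and 583 against 604) and Cd68 (360 against 371) gave most of the sum. Much dimmer were Csf1r (19.3, under the floor, against 21.9), Tmem119 (23.1 against 23.3), Cx3cr1 (29.9 against 31.6) and 1 probe set of P2ry12 (30.6 against 36.6). Markers of other cells were partly above the floor. Of 6 astrocyte markers, Aqp4, Aldh1l1, Slc1a3 and S100b were under it on both arrays. Gfap had 36.9 on the OGD array against 27.4 at rest and 1 probe set of Slc1a2 had 32.0 against 23.8, each a log2 difference of 0.43. The other probe set of Slc1a2 was under the floor and lower, with 5.23 on the OGD array against 6.21 at rest. The astrocyte list summed to 141 after OGD against 124 at rest. Among neuron markers Rbfox3, Tubb3 and Snap25 were under the floor, and Elavl3 (98.2 against 101 and 108 against 117), Syn1 (56.8 against 48.1) and Ina (22.6 against 20.8) were above it, with a sum of 372 against 376. Mog and Olig2 of the oligodendrocyte lineage were under the floor, and Sox10 (37.1 against 39.1), Mbp (35.7 against 30.5) and Cspg4 (19.9 against 21.1) above it, with a sum of 140 against 138. Of fibroblast markers Col1a2, Dcn, Lum and Pdgfra were under the floor, and Col1a1 (48.4 against 41.9) and Thy1 (22.3 against 28.4) above it, with a sum of 145 against 141. The endothelial markers Pecam1, Cldn5 and Tek were under the floor, and Esam (82.7 against 89.0) and Vwf (56.4 against 46.3) above it, with a sum of 165 against 158. Above the floor these lists thus held values in both directions, apart from the astrocyte one, where the 2 measured probe sets were higher. Under the floor the astrocyte list also went both ways. For example, 1 probe set of Aqp4 had 10.1 on the OGD array against 10.8 at rest, and Aldh1l1 had 15.7 against 14.7. Syn1, Ina, Mbp, Col1a1 and Thy1 had further probe sets under the floor, not printed here. The part of these markers in the target values was not tested, and in such bulk RNA fewer cells of a type and less RNA per cell cannot be told apart.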

How the data were processed

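Values came from the series' deposited table, which per its column headings holds 1 OGD and 1 resting array. The deposited values are intensities on a linear scale, read as such from their range. Per the labels' protocols, RNA was extracted with TRIzol, primed with oligo(dT) and transcribed with biotinylated nucleotides. How the authors corrected background, summarised probes and scaled the arrays is not given in the sources used here. If the arrays were scaled to each other, a shift common to most genes would be hidden.

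Of 31099 probe sets 57 are array controls and were left out. Genes come from the platform annotation, with symbols updated through Entrez IDs to RefSeq (GRCr8). All target probe sets were used. The floor is the higher of both arrays' medians (4.30 on the log2 scale), applied to both. With 1 floor per array, a probe set of Higd1a that read lower after OGD had entered as higher. With 1 array per group no test was possible, so the fixed sizes of 1.5-fold and 1.2-fold were used. The number of arrays limits the precision.

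All 31 genes are named, with up to 3 others in each direction by mean difference. Slc2a1 and the remaining measured glycolytic genes of the other hypoxia-responsive list were added after their values were seen. The members and lists were chosen with earlier results of these data known. Alternatives were other floors, scalings (a loess span of 0.3), probe set choices and a pseudocount. Counting was tested on simulated arrays. Computation used Python 3.11.15, pandas 2.3.3 and statsmodels 0.14.6.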

Additional observations from a re-analysis of the deposited data

How the results depend on the processing

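No target probe set reached 1.5-fold under any alternative run. The median log2 difference of the targets stayed between 0 (brightest probe set of each gene) and 0.032 (genes with 2 or more measured probe sets). At 1.2-fold, the 3 higher probe sets became 5 without a floor and 1 with the brightest probe set of each gene. The 2 lower ones became 3 without a floor, 1 with the floor at the 70th percentile, 1 with a pseudocount and 0 among genes with 2 or more measured probe sets, a choice made after seeing the data, since Pfkfb4 and Ankrd37 have 1 measured probe set each. With the floor at the 70th percentile, 5 in place of 9 genes had every measured probe set lower. With the brightest probe sets, 4 in place of 7 were equal. Without a floor, 26 of 48 were higher and 15 lower, beside 44.5% and 47.3% over all probe sets. Quantile scaling turned 2 signs, those of Higd1a and 1 Ero1a probe set. The number of arrays and signal near the floor limit all values, and 14 of 48 target probe sets were under it. No paired analysis was possible because each group has 1 array.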

Other observations

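Deposited values were not spread evenly. The OGD array held 27188 distinct values and the resting array 27164 among 31042 probe sets, and the most frequent value, 5.79, occurred 104 times over both arrays. Of values over 50, 8.86% on the OGD array and 9.01% on the resting array lay on 1 grid of steps of 0.5, with a tolerance of 2e-05. Among the target probe sets 3 lay on this grid on both arrays. These were 1 of Vegfa at 240.665231 on both, Stc2 at 68.665231 on the OGD array against 73.165231 at rest, and Pfkfb3 at 77.165231 against 68.665231. Their differences of 0, -4.5 and 8.5 are whole numbers of such steps, and the OGD value of Stc2 is the resting value of Pfkfb3. How the grid came about was not tested.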
